A study of Mus musculus with 28 samples.

Results

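The genes described here encode subunits of the voltage-gated sodium channels, measured along the body axes of the mouse brain. Of 9 genes listed by symbol, 6 encode alpha subunits (Scn1a, Scn2a, Scn3a, Scn7a, Scn8a and Scn9a) and 3 encode beta subunits (Scn2b, Scn3b and Scn4b). Array probes were assigned to them through the accession that the array files give for each probe, and 14 of 55681 probes matched, covering 7 of the 9 genes and standing among 20660 symbols in all. Scn9a and Scn3b matched no probe by accession and are not analysed here. Each gene is represented by the probe with the highest mean level, 6 of the 7 genes had such a probe among those tested, and the exception was Scn7a.

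Whole brains of 3 male C57BL/6J mice at 3 weeks of age, grown in pathogen-free conditions, were cut into consecutive frozen sections, and the sections were pooled into fractions (Transcriptome Tomography). The coronal series holds 12 fractions of mouse 1, the horizontal series 6 fractions of mouse 2 and the sagittal series 10 fractions of mouse 3. No mutation or treatment is named in the labels. Each fraction gave 1 total RNA sample and was hybridised to 1 one-colour microarray, so no position has a replicate, and mouse and plane cannot be told apart. Fractions are named by number, since the labels and the methods state different widths, and the label of coronal fraction 12 also names the fraction after it. A level is the background-subtracted signal on a log2 scale, from which the 75th percentile of its own array was subtracted, so 0 means as bright as the 75th percentile. Probes bind with different strength, so levels are compared between fractions for 1 probe and never between genes. A fraction is a mixture of cells, and fewer cells of a type cannot be told apart from less RNA per cell.

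A voltage-gated sodium channel consists of 1 large alpha subunit, which forms the pore, senses the voltage and inactivates, together with smaller beta subunits, which span the membrane once, carry an immunoglobulin-like domain outside the cell and modify gating and placement in the membrane. Scn1a (Nav1.1) is prominent in fast-spiking inhibitory neurons, Scn2a (Nav1.2) in excitatory neurons and unmyelinated axons, Scn8a (Nav1.6) at mature axon initial segments and nodes of Ranvier, and Scn3a (Nav1.3) is best known from the immature brain. Scn9a (Nav1.7) is known from peripheral sensory neurons and Scn7a encodes an atypical channel sensitive to extracellular sodium. Scn2b and Scn4b bind alpha subunits through a disulfide bond. Scn4b is known for its part in resurgent sodium current in Purkinje cells and for its high expression in the striatum.

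The 2 beta subunit genes with a probe are direct neighbours among the protein-coding genes of mouse chromosome 9, with Scn2b first and Scn4b after it. In the same annotation (RefSeq, GRCm38.p6) Scn3a and Scn2a are neighbours on chromosome 2, and so are Scn1a, Scn9a and Scn7a, while Scn8a lies on chromosome 15. Promoter windows of 300 bases, from 250 before to 50 after the annotated start, were found for 7 of the 9 genes. Those of Scn2b (GRCm38.p6, chr9:45117626-45117925, plus strand) and Scn4b (GRCm38.p6, chr9:45138374-45138673, plus strand) are shown because these neighbours are the beta subunits compared below. Capitals mark each CG dinucleotide, which reads the same on both strands.
Scn2b: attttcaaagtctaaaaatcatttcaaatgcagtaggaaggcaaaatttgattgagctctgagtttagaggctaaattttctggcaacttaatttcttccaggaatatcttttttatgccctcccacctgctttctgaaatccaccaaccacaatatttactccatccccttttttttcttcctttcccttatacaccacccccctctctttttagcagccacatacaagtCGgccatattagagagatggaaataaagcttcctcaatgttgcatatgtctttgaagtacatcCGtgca
Scn4b: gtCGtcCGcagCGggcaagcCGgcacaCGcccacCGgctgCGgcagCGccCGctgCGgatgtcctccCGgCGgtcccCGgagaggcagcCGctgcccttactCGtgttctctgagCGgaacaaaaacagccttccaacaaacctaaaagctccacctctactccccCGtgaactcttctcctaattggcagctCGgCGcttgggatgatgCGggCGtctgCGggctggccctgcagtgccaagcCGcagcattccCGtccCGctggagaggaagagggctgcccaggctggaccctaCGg
The window of Scn2b holds 2 CG dinucleotides and is 38.3% G or C. That of Scn4b holds 26 CG dinucleotides and is 66.3% G or C. The median over all 32851 windows of this length was 7 CG dinucleotides and 52.7% G or C, and 16.9% of them hold at least as many CG dinucleotides as Scn4b, whereas 23.3% hold as few as Scn2b or fewer. These are properties of the reference sequence alone, and no measurement here bears on them directly.

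The arrays were of unequal brightness. Their 75th percentiles ranged from a signal of 135.2 in sagittal fraction 1 to 573.5 in coronal fraction 4, and between 24822 and 34240 probes per array were well above background, with no saturated spot. The 28 arrays lay on 4 slides. Coronal fractions 1 and 2 and all horizontal fractions were on slide 1, and coronal fractions 3 to 10 on slide 2. Slide 3 held coronal fractions 11 and 12 and sagittal fractions 5 to 10, and slide 4 held sagittal fractions 1 to 4. The lists of region markers marked positions along each series. Hindbrain markers (4 of 5 genes with a probe) peaked in coronal fraction 1, Purkinje cell markers in coronal fraction 3, thalamus markers in coronal fraction 6, striatum markers in coronal fraction 8 and olfactory bulb markers in coronal fraction 12. Cerebral cortex markers peaked in horizontal fraction 1 and hypothalamus markers in horizontal fraction 6.

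Among the beta subunits, Scn4b varied far more along the brain than Scn2b. In the coronal series Scn4b (probe A_66_P112495, accession NM_001013390) had its lowest level, 0.22, in fraction 12, a median of 3.84 and its highest level, 5.37, in fraction 8. The caudal fractions 1 to 4 held levels of 4.32, 4.07, 3.92 and 3.85. Fractions 5 and 6 dropped to 2.65 and 2.76, fractions 7, 8 and 9 stood at 3.84, 5.37 and 4.78, and fractions 10, 11 and 12 at 2.09, 1.82 and 0.22. The profile thus had a caudal plateau, a trough and a higher rostral peak before its decline, and highest and lowest fraction differed by 35.5-fold. The difference was 11.7-fold without fraction 12 and 23.6-fold without fraction 8.

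The positions of these features coincided with those of several marker lists. The 5 Purkinje cell markers, all of them above background somewhere, averaged 3.62 relative to their coronal mean (log2) in fraction 3 and -2.0 in fraction 12. The 6 striatum markers averaged 2.85 relative to their coronal mean in fraction 8 and -2.21 in fraction 3. Both lists include some background readings. Calb1, Ppp1r17 and Drd2 were well above background in 10 of 12 coronal fractions each, and Drd1 in 9. Scn4b was highest in the fraction where the striatum markers were highest, and low in fractions 5 and 12, where both lists were below their means. It was also low in fractions 6 and 10, where the striatum list was 0.17 and 0.36 above its mean. Across the 28 fractions, centred within each series, Pearson's r of Scn4b was 0.84 with the mean of 6 myelin markers, 0.74 with the choroid plexus list and also with 10 genes of the axon initial segment and node, 0.73 with the general neuron list, 0.68 with 5 fast-spiking neuron markers, 0.59 with the Purkinje list and 0.57 with the striatum list. The r with log2 of the 75th percentile of the array was 0.63, so the Purkinje and striatum lists were not the closest to Scn4b. These correlations are descriptions over fractions in each of which all genes share the same RNA and array. The part of cell composition in the Scn4b profile was not tested.

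**Figure D1:**
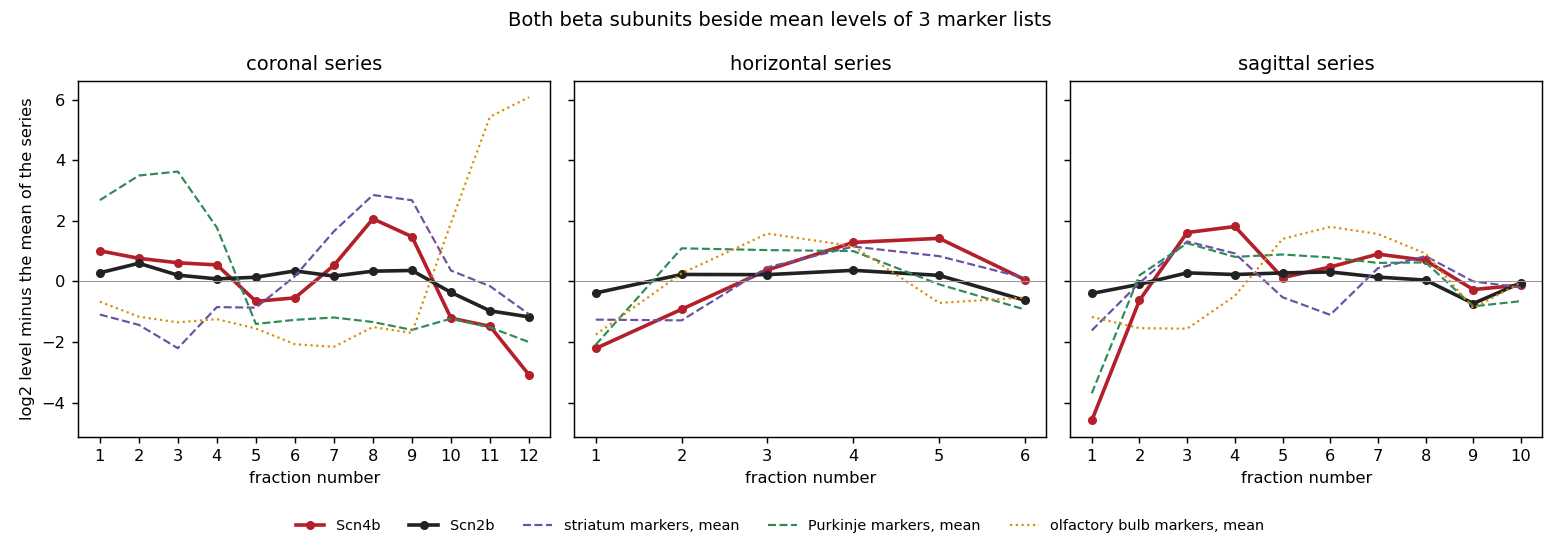
Level of Scn4b and Scn2b in each fraction minus the mean of its series (log2, y axis), by fraction number (x axis), with the mean of the striatum, Purkinje and olfactory bulb marker lists drawn the same way, 1 array per point. Scn4b peaks in coronal fraction 8 with the striatum list and is high in coronal fractions 1 to 4, where the Purkinje list is high, while Scn2b lies between 0.08 and 0.60 in coronal fractions 1 to 9 and below 0 from fraction 10 on.

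In the horizontal series Scn4b rose from 0.81 in fraction 1 through 2.11 and 3.40 to 4.31 and 4.45 in fractions 4 and 5, and stood at 3.08 in fraction 6. The lowest fraction was thus the one where cortex markers peaked, and the difference between fractions 5 and 1 was 12.4-fold. Without fraction 1 the range was 5.06-fold. In the sagittal series the levels were -1.57, 2.39, 4.63, 4.83, 3.14, 3.49, 3.91, 3.71, 2.74 and 2.90 from fraction 1 to 10. There were 2 maxima, at fractions 4 and 7, with a dip at fractions 5 and 6 between them, while the striatum list had maxima at fractions 3 and 8 and a minimum between them at fraction 6. The range of 84.4-fold rested on fraction 1, without which it was 5.41-fold, and the mirror fraction 10 of fraction 1 lay 4.47 higher on the log2 scale. Fraction 1 was also the dimmest array of all. It held the lowest mean level in that series of the striatum, Purkinje, cerebellar granule cell, general neuron and fast-spiking neuron lists. The same was true of the axon initial segment and node, myelin, choroid plexus and sensory ganglion lists. Which of these goes with the low level was not tested.

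A change with position was tested in each series with a spline of the fraction number, fitted with limma to all 32364 tested probes (Benjamini-Hochberg adjusted p under 0.05). Positions are not replicates, so such a p describes 1 brain, and the residual holds anatomy. Scn4b changed with position in the coronal (adjusted p = 0.00675), horizontal (adjusted p = 0.0211) and sagittal series (adjusted p = 0.0352), with fitted ranges of 4.62, 3.59 and 5.40 on the log2 scale. These lay at percentiles 98.7, 96.2 and 99.5 of the fitted ranges of all tested probes. The coronal spline put the maximum at fraction 1, because 3 degrees of freedom smooth the measured peak at fraction 8. The coronal call was lost without fraction 12 (adjusted p = 0.0992), with slide as a term (0.289), with 1 spline degree of freedom fewer (0.0693) and within fractions 3 to 10 of 1 slide (0.101). The horizontal and sagittal calls were lost with 1 degree of freedom fewer too (0.404 and 0.0816). Those fits called 0.00309% and 12.7% of all tested probes. The horizontal call was lost without fraction 3 (0.0686) or 4 (0.0784), and the sagittal call without fraction 1 (0.646), 2 (0.0811), 3 (0.0708), 4 (0.118) or 6 (0.0624), and all 3 calls without the arrays of low signal (0.0584, 0.161 and 0.135). With array signal as a term the horizontal (0.0784) and sagittal (0.399) calls were lost and the coronal call held. The sagittal call was also lost with quantile normalization (0.0541) and within fractions 5 to 10 (0.729), where 8.13% and 0% of all tested probes were called.

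Scn2b (probe A_51_P212741, accession NM_001014761) was flat over coronal fractions 1 to 9 and lower in the rostral fractions 10 to 12. Its coronal levels ran from 3.95 in fraction 12 over a median of 5.31 to 5.72 in fraction 2. The first 9 fractions lay between 5.20 and 5.72, and the last 3 fell away to 4.76, 4.15 and 3.95. Horizontal fractions 1 to 6 read 4.69, 5.30, 5.29, 5.43, 5.27 and 4.44, so that both end fractions were lower than the 4 between them. Sagittal fractions 1 to 10 read 4.76, 5.06, 5.44, 5.39, 5.44, 5.47, 5.30, 5.20, 4.43 and 5.11, with the lowest in fraction 9. Its highest and lowest fractions differed by 3.41-fold, 1.99-fold and 2.06-fold in the coronal, horizontal and sagittal series. Its r with log2 of the 75th percentile of the array was 0.63, at or below which lay 87.1% of tested probes. Within the coronal, horizontal and sagittal series it was 0.49, 0.98 and 0.84. The low readings in horizontal fractions 1 and 6, coronal fractions 10 and 11 and sagittal fraction 9 came from dim arrays. Their 75th percentiles were under 300, while that of coronal fraction 12 was 421.2. The coronal trend passed the test (adjusted p = 0.00165, fitted range 1.76) and was called without each of the 12 fractions in turn, but not with slide as a term (adjusted p = 0.517) or within fractions 3 to 10 (0.269). The horizontal (adjusted p = 0.0769) and sagittal (adjusted p = 0.253) trends did not pass.

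The neighbouring beta subunit genes thus went together in part. Pearson's r between their centred profiles was 0.68 over the 28 fractions, 0.85 within the coronal, 0.52 within the horizontal and 0.60 within the sagittal series. They parted between coronal fractions 6 and 8, for example, where Scn4b went from 2.76 to 5.37 and Scn2b from 5.47 to 5.46.

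Among the alpha subunits, Scn1a was highest in caudal and inner fractions. Its levels (probe A_55_P2138761, accession NM_018733) ran in the coronal series from 2.06 in fraction 11 over a median of 3.67 to 4.25 in fraction 4. Fractions 1 to 9 held between 3.40 and 4.25, and fractions 10, 11 and 12 dropped to 2.28, 2.06 and 2.71, below all others. Horizontal fractions 1 to 6 stood at 2.74, 3.70, 3.18, 3.59, 3.98 and 2.68, lowest at both ends. The sagittal levels were 1.17, 2.75, 3.94, 4.39, 3.83, 4.19, 3.93, 2.72, 2.64 and 3.21. The 5 fractions from 3 to 7 lay above all outer ones, and fraction 1 was lowest. Highest and lowest fraction differed by 4.56-fold, 2.45-fold and 9.34-fold in the 3 series, the last of which was 3.37-fold without sagittal fraction 1.

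Scn1a changed with position in the coronal (limma, adjusted p = 0.0208, fitted range 1.68) and sagittal series (adjusted p = 0.0140, fitted range 3.11). Its horizontal trend missed the threshold (adjusted p = 0.370). Leaving out fraction 11 ended the coronal call (adjusted p = 0.0699) and leaving out fraction 1 the sagittal call (0.213), and both ended without the arrays of low signal (0.0728 and 0.172). The coronal call also ended with slide as a term (0.515) and within fractions 3 to 10 (0.149), and the sagittal call with the array median (0.0626), 1 spline degree of freedom fewer (0.0523) and within fractions 5 to 10 (0.690). A second probe of Scn1a followed the first with r = 0.81 and was called in the coronal series only (adjusted p = 0.0173). Its range was smaller, 1.29 against 2.19 in the coronal series and 1.13 against 3.22 in the sagittal series. The centred profile of Scn1a had r = 0.91 with the mean of 10 genes of the axon initial segment and node, r = 0.89 with the 7 general neuron markers, r = 0.81 with the 5 fast-spiking neuron markers and r = -0.71 with the 5 microglia markers. It also had r = 0.85 with log2 of the 75th percentile of the array, and 98.4% of tested probes had an r at or below this. With array signal as a term the sagittal call was lost (adjusted p = 0.457), as were those of all tested probes in that series, while the coronal call held.

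The coronal levels of Scn2a (probe A_55_P2126473, accession NM_001099298) ran from 2.91 in fraction 11 over a median of 4.01 to 4.58 in fraction 8. They were 3.82, 4.19, 3.98, 4.22, 3.91 and 3.20 in the horizontal series, and in the sagittal series they ran from 3.37 in fraction 1 over a median of 3.99 to 4.51 in fraction 3. The ranges of 3.20-fold, 2.03-fold and 2.21-fold were at percentiles 61.9, 52.8 and 28.9 of the measured ranges of all tested probes, and its fitted ranges at percentiles 75.7, 61.3 and 48.5. The horizontal range was 1.32-fold without fraction 6. The coronal trend passed narrowly (adjusted p = 0.0437, fitted range 1.47) and was called in 3 of 12 fits that each left out 1 fraction, those without fraction 1, 2 or 7. In the others the adjusted p was between 0.0546 (without fraction 5) and 0.122 (without fraction 11), with 0.0584, 0.0662, 0.0836, 0.0759, 0.0580, 0.0636 and 0.0924 without fraction 3, 4, 6, 8, 9, 10 and 12. The call was also lost with slide as a term (0.786), within fractions 3 to 10 (0.392), without the arrays of low signal (0.159), with the array median (0.0973), with array signal as a term (0.0807) and with no filter on dim probes (0.0520). The horizontal (adjusted p = 0.104) and sagittal (adjusted p = 0.104) trends did not pass. A second probe followed the first with r = 0.97 and another with r = 0.72. Neither was called in any series.

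Scn3a, the alpha subunit best known from the immature brain, was low at the caudal end of the coronal axis, where Scn1a was high. It was lowest in fractions 1, 2 and 3 (probe A_55_P2119772, accession NM_018732) with levels of -0.17, 0.36 and -0.89. From fraction 4 on it stood between 1.06 and 2.10, with the highest level in fraction 8 and the next highest, 2.04, in fraction 12. The lowest 3 fractions were those in which the cerebellar granule cell markers (5 of 5 detected) were 3.43 to 4.38 above their coronal mean. Of these markers, Gabra6 and Cbln3 were well above background in 5 and 4 of 12 coronal fractions. Their means thus include background readings, and the size of this difference is approximate. The horizontal levels were 0.82, 0.96, 1.01, 1.40, 1.74 and 1.29, so that fractions 1 to 3 all lay below fractions 4 to 6. Sagittal levels ran from 0.42 in fraction 8 over a median of 1.28 to 1.82 in fraction 5.

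The coronal range of Scn3a was 7.94-fold, and 4.83-fold without fraction 3. The coronal trend passed (limma, adjusted p = 0.0352, fitted range 2.15) and was called in 4 of 12 fits with 1 fraction left out. It was lost without fraction 1 (0.0738), 2 (0.0599), 5 (0.0513), 6 (0.0587), 7 (0.0540), 8 (0.0627), 9 (0.0626) or 11 (0.0552), with slide as a term (0.185), within fractions 3 to 10 (0.0746) and with the array median (0.0648). A second probe gave nearly the same profile (r = 0.94) with an adjusted p of 0.0886, and the remaining probe was above background in 3 of 28 fractions. Neither the horizontal (adjusted p = 0.203) nor the sagittal trend (adjusted p = 0.115) passed. The r of Scn3a with Scn1a was -0.30 in the coronal, 0.56 in the horizontal and 0.84 in the sagittal series.

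The probes of Scn8a disagreed. The brightest (A_55_P2057132) was lowest in coronal fraction 1 at -0.36, had a median of 0.49 and was highest in fraction 10 at 1.94. In the horizontal series it read 1.02, 0.60, 0.26, -0.04, 0.65 and 1.76, and in the sagittal series 1.97, 0.90, -0.08, -0.30, -0.49, 0.10, -0.30, 0.19, 2.20 and 1.32. It was thus highest in horizontal fraction 6, sagittal fraction 9 and coronal fraction 10, and opposite in sign to Scn1a (r = -0.75 over the 28 fractions). It passed the test in the coronal (adjusted p = 0.0257), horizontal (adjusted p = 0.0347) and sagittal series (adjusted p = 0.0389), with fitted ranges of 1.37, 1.59 and 2.39. Another probe (A_55_P2072333), above background in 9 of 12 coronal, 4 of 6 horizontal and 8 of 10 sagittal fractions, also passed in the coronal (adjusted p = 0.0124) and horizontal series (adjusted p = 0.0420), but with the fitted maximum in coronal fraction 1 and the minimum in fraction 12. It was not well above background in coronal fractions 10 to 12, so no range is given for it. The remaining probe (A_55_P2072339) also had its fitted maximum in coronal fraction 1 and did not pass in any series. The r between the brightest probe and these 2 probes was -0.53 and 0.08. All 3 carry the accession NM_001077499, so the array files do not tell which part of the transcript each binds.

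The brightest Scn8a probe went with array signal more closely than any other member probe apart from that of Scn1a, and with the opposite sign. Its r with log2 of the 75th percentile was -0.82, at or below which lay 4.2% of tested probes, while that of A_55_P2072333 was 0.49. The 4 highest readings of the brightest probe, from 1.76 to 2.20, came from arrays whose 75th percentiles were 176.0, 135.2, 251.1 and 232.9. Since the probes differ in direction, no profile is given for the gene as a whole. The coronal call of the brightest probe was lost without fraction 9 (0.0651) or 11 (0.0670). The horizontal call was lost without fraction 2 (0.0525), 3 (0.0759), 4 (0.143), 5 (0.0539) or 6 (0.133), and the sagittal call without fraction 1 (0.219), 2 (0.0768), 3 (0.0854), 4 (0.0983), 5 (0.0972), 6 (0.0725) or 7 (0.0620). Both the horizontal and the sagittal call ended with array signal as a term (0.247 and 0.801), without the arrays of low signal (0.288 and 0.196) and with the array median (0.344 and 0.164). The horizontal call also ended with 1 spline degree of freedom fewer (0.870), and the sagittal call with quantile normalization (0.0953), slide as a term (0.0760) and within fractions 5 to 10 (0.717). The coronal call ended with slide as a term (0.215).

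**Figure D2:**
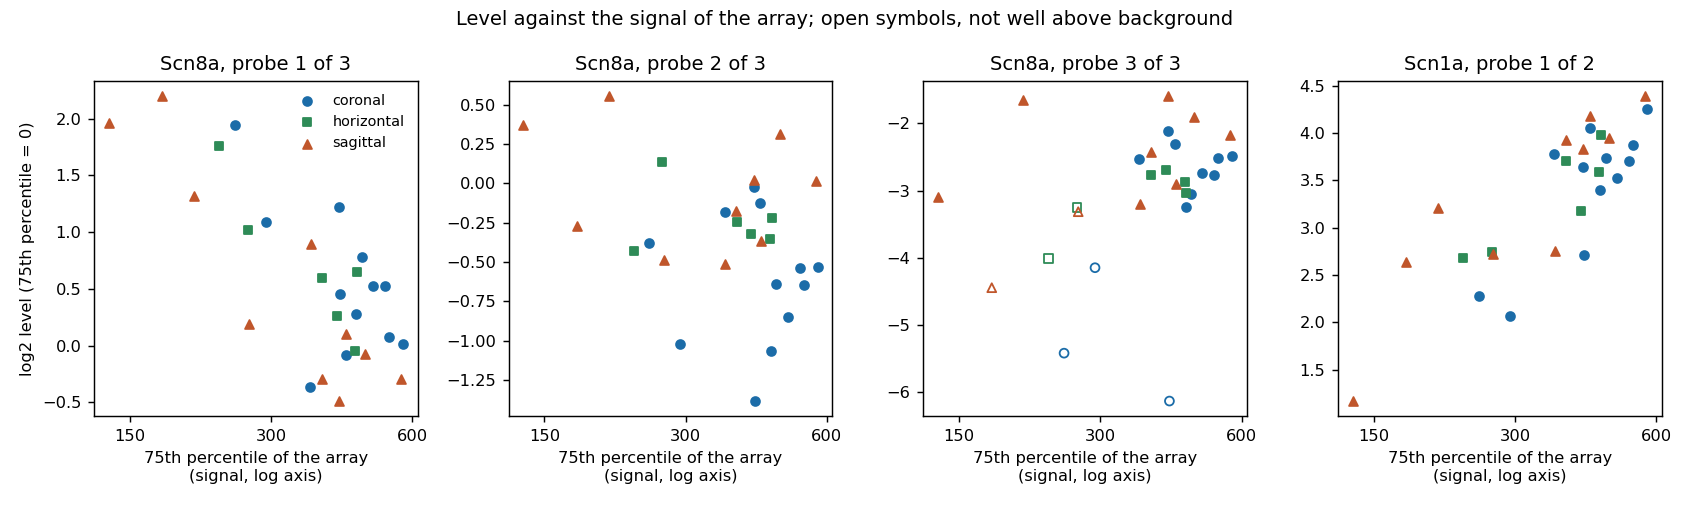
Level of the 3 Scn8a probes and of the brightest Scn1a probe (log2, y axis) against the 75th percentile of the array (x axis, log scale), 1 point per fraction; open symbols are readings not well above background. The first Scn8a probe falls with array signal (r = -0.82) and the Scn1a probe rises (r = 0.85), while the second Scn8a probe shows little relation (r = -0.17).

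Scn7a, known from glia and peripheral nerve, was not well above background in any of the 28 fractions (1 probe, A_52_P353478, readings between -7.28 and -4.19) and was not tested. No fold is given for it.

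**Figure D3:**
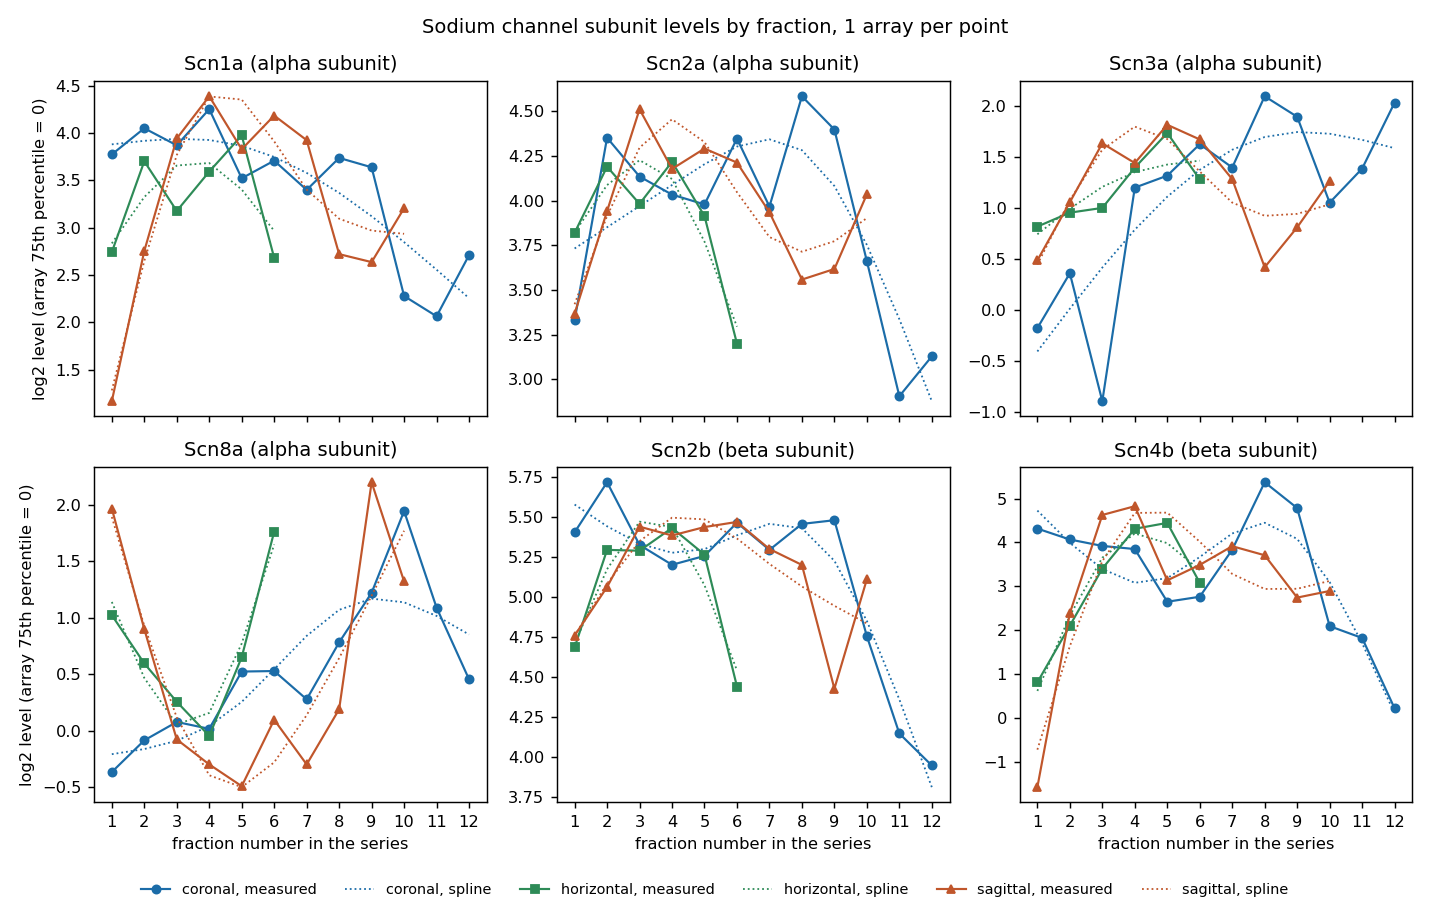
Level of the 6 tested genes (log2, array 75th percentile at 0, y axis) by fraction number (x axis); symbols joined by lines are measured values, 1 array each, in the coronal, horizontal and sagittal series, and dotted lines are the fitted splines. The y axis differs between panels. Scn4b spans from -1.57 to 5.37, and Scn3a is lowest in coronal fractions 1 to 3.

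Compared as classes, 4 of 4 alpha and 2 of 2 beta subunit genes changed with position in the coronal series, where 33.7% of all tested probes did. In the horizontal series 1 of 4 alpha genes (Scn8a) and 1 of 2 beta genes (Scn4b) passed, against 15.8% of tested probes. In the sagittal series 2 of 4 alpha genes (Scn1a and Scn8a) and 1 of 2 beta genes (Scn4b) passed, against 14.7% of tested probes. In each series Scn8a is counted by its brightest probe, whose profile its other probes did not follow. The coronal count of 6 genes fell to 0 with slide as a term, to 1 within fractions 3 to 10 of 1 slide, to 3 without fraction 9 and to 2 without fraction 11. The horizontal count of 2 fell to 0 without fraction 3 or 4 and to 1 without fraction 2, 5 or 6. The sagittal count of 3 fell to 0 without fraction 1 and to 1 without fraction 2, 3, 4 or 6, and reached 6 without fraction 10. The counts over all probes moved with it, from 0% called without fraction 1 to 47.1% without fraction 10, and 0% were called in the horizontal series without fraction 3 or 4. Horizontal shares without fraction 2, 5 and 6 were 10.3%, 17.8% and 4.13%. Sagittal shares without fraction 2, 3, 4 and 6 were 8.62%, 6.98%, 6.44% and 6.24%. With slide as a term 0.745% of all probes were called in the coronal series. The coronal share was 12.9% within fractions 3 to 10, 29.2% without fraction 9 and 24.5% without fraction 11.

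The size of the variation differed within both classes. Median fitted ranges were 1.57, 0.89 and 1.87 for the alpha genes in the coronal, horizontal and sagittal series, beside 0.90, 0.74 and 1.06 for all tested probes. The beta genes lay on both sides of the alpha genes in the sagittal series, with 0.74 for Scn2b and 5.40 for Scn4b against 1.04 to 3.11. Scn4b had the largest fitted range of the 6 genes in each of the 3 series. In the sagittal series this rests on fraction 1. Without it the measured range of Scn4b was 2.44 in place of 6.40, below the 2.69 of the brightest Scn8a probe. Scn2b and Scn4b were measured by 1 probe each. A range can differ between probes of 1 gene, as in Scn1a, whose 2 probes had measured sagittal ranges of 3.22 and 1.13. With 2 beta genes measured, no test between the classes was made.

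**Figure D4:**
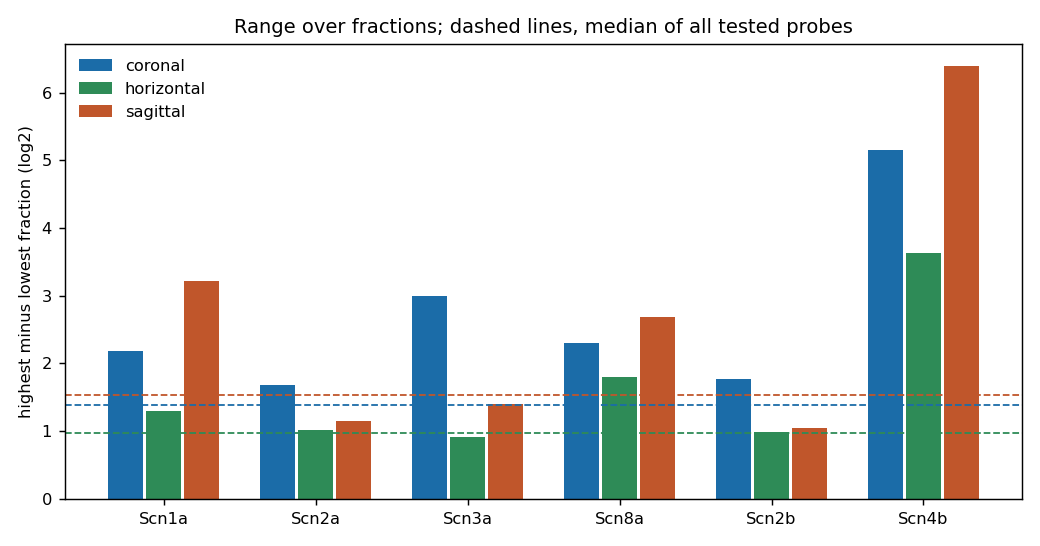
Highest minus lowest level over the fractions of each series (log2, y axis) for the 6 tested genes (x axis), bars coloured by series; dashed lines give the median over all tested probes in the same series. Scn4b exceeds the others with 5.15, 3.63 and 6.40, of which the sagittal value falls to 2.44, below that of Scn8a, without fraction 1. Below the median line lie Scn2b (1.04), Scn2a (1.14) and Scn3a (1.40) in the sagittal series and Scn3a (0.92) in the horizontal series.

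Profiles were alike in some pairs within a class and in some across classes. Over the 8 alpha-beta pairs Pearson's r ran from -0.61 to 0.83 with a median of 0.35, and over the 6 alpha-alpha pairs from -0.75 to 0.72 with a median of 0.09. Both lowest values are pairs of the brightest Scn8a probe. Without Scn8a the 6 alpha-beta pairs had a median of 0.67 and the 3 alpha-alpha pairs a median of 0.23. The closest pair of all was Scn2a with Scn2b (r = 0.83, Spearman's rho = 0.85), followed by Scn1a with Scn4b (r = 0.78, rho = 0.69). Within the coronal, horizontal and sagittal series the first pair had r = 0.83, 0.90 and 0.77 and the second 0.72, 0.58 and 0.88. The neighbours on chromosome 2, Scn3a and Scn2a, had r = 0.23 over all fractions, with 0.05 in the coronal, -0.07 in the horizontal and 0.94 in the sagittal series. All pairs share the same 28 arrays, so these values describe the arrays as well as the genes.

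**Figure D5:**
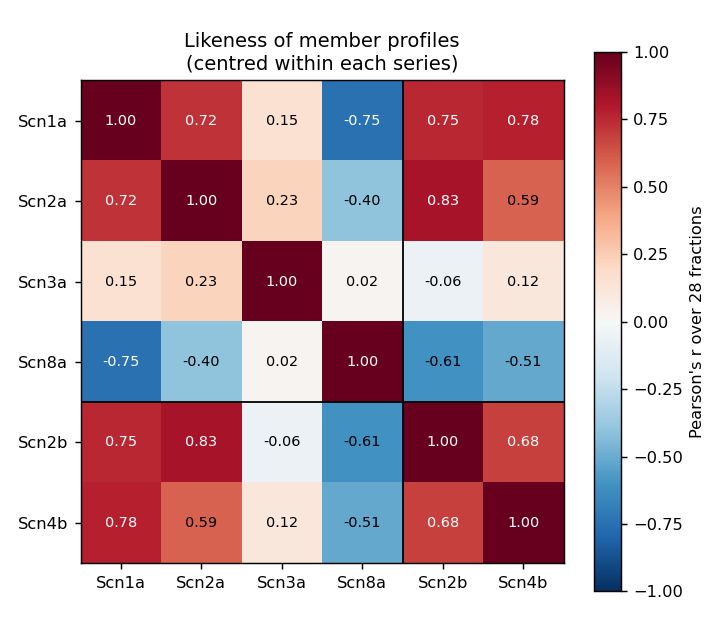
Pearson's r between the profiles of the 6 tested genes over 28 fractions, levels centred within each series; black lines divide alpha from beta subunits and the colour scale runs from -1 to 1. Scn1a, Scn2a, Scn2b and Scn4b form a block with r from 0.59 to 0.83, and the brightest Scn8a probe is negative against all 4 of them.

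No gene of the 6 passed the limma test between the parts of a series. Coronal fractions 1 to 6 against 7 to 12 gave 0 of 6 genes. Of tested probes, 1.29% were called higher in fractions 1 to 6 and 0.624% lower. An unadjusted p under 0.05 was reached by 3 of the 6 genes and by 7307 of all 32364 tested probes. Scn1a was 0.89 ± 0.29 (SE) higher caudally (adjusted p = 0.105), Scn3a differed by -1.07 ± 0.40 (adjusted p = 0.141) and the brightest Scn8a probe by -0.84 ± 0.27 (adjusted p = 0.0979). Scn4b, which had high fractions on both sides, differed by 0.57 ± 0.77 (adjusted p = 0.705), and by -0.725 with slide as a term.

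Horizontal fractions 1 to 3 against 4 to 6 gave 0 of 6 genes, with 0% of tested probes called higher and 0% lower. The unadjusted p was under 0.05 for 2 of the 6 genes and for 1784 of all 32364 tested probes. Scn4b differed by -1.84 ± 0.72 (adjusted p = 0.899). Scn3a differed by -0.55 ± 0.19 (adjusted p = 0.862), and it was the 1 gene of 6 whose compared fractions did not overlap; among all tested probes 3.74% lay lower in fractions 1 to 3 without overlap. Sagittal fractions 4 to 7 against the outer ones gave 0 of 6 genes. Of tested probes, 0.133% were called higher in the inner fractions and 0.0154% lower. In this comparison 3 of the 6 genes had an unadjusted p under 0.05, as had 8059 of all 32364 tested probes. Inner minus outer levels were 1.34 ± 0.43 for Scn1a (adjusted p = 0.140) and -1.33 ± 0.43 for the brightest Scn8a probe (adjusted p = 0.141). Without sagittal fraction 3 these differences were 1.59 and -1.56 and passed the test (adjusted p = 0.0317 and 0.0348). In that fit 12.2% of all tested probes were called, so these calls are not particular to the 2 genes.

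In the sagittal series, mirror fractions of the left and right side were compared. The median difference between the 5 mirror pairs was 0.24 for Scn2b, 0.25 for Scn3a, 0.32 for Scn2a, 0.46 for Scn1a, 0.59 for the brightest Scn8a probe and 0.91 for Scn4b on the log2 scale. Between adjacent fractions the medians were 0.17, 0.39, 0.33, 0.56, 0.59 and 0.43 in the same order of genes, so that mirror fractions of Scn4b and Scn2b differed more than adjacent ones. The largest differences of Scn4b and Scn1a, 4.47 and 2.04, were both between fractions 1 and 10. The fractions of a pair need not hold the same anatomy if the cut was not centred. Sagittal fractions 1 to 4 lay on another slide than fractions 5 to 10. Every mirror pair apart from fractions 5 and 6 therefore crossed slides, whereas adjacent fractions shared a slide apart from 4 and 5. Side and slide cannot be told apart in these differences.

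Of further sodium channel genes, Scn10a and Scn11a, known from sensory neurons, changed with position in the coronal series (limma, adjusted p = 0.00130 and 0.00185), but were above background in 8 of 12 coronal fractions each, so no range is given for them. Their fitted directions differed, with the maximum of Scn10a in fraction 9 and that of Scn11a in fraction 1. Scn4a of skeletal muscle also passed there (adjusted p = 0.0472, fitted range 1.39), and Nalcn, a sodium leak channel, did not (adjusted p = 0.162, fitted range 0.63). None of these 4 genes passed in the horizontal or the sagittal series, where their lowest adjusted p was 0.0533 (Scn11a, horizontal).

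Partners of the channels at the axon initial segment and node of Ranvier were described in the same way. Of 10 genes, 3 passed in the coronal series, 1 in the horizontal and 3 in the sagittal series, beside 33.7%, 15.8% and 14.7% of all tested probes, so that the coronal and horizontal counts were no higher than the background. The largest coronal fitted ranges were those of Cntn2 (1.90), an adhesion molecule of the juxtaparanode, and Cntnap1 (1.57), an axonal protein of the paranode, both with their maximum in fraction 1. The smallest were those of Bcan (0.31), a matrix proteoglycan, and Ank2 (0.45), an ankyrin.

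The genes whose profiles were most like those of the members were searched among 19163 probes, with Pearson's r over 28 fractions. Those nearest to Scn4b were Gprin3 (0.93), Nexn (0.93) and Dach1 (0.92), and those nearest to Scn2b were Ets2 (0.95), Sema4f (0.94) and Larp6 (0.94). Scn1a was closest to Rcan2 (0.95), Cntn4 (0.95) and Hspa4l (0.94). Scn2a was closest to Dagla (0.94), Atp2a2 (0.93) and Pfkp (0.92), and Scn3a to BC030500 (0.92), Clvs2 (0.92) and Bend4 (0.92). The brightest Scn8a probe was closest to Fam219a, Suv39h2 and Ogfod1, each with r = 0.97.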

How the data were processed

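Gene expression was measured in 28 fractions of 3 mouse brains, 12 coronal, 6 horizontal and 10 sagittal, with 1 one-colour Cy3 array per fraction. The deposited values are intensity per spot, extracted per the file headers by Agilent Feature Extraction 10.5.1.1, which subtracts background. The authors also deposited per-array normalised log2 values of 44721 probes, used to check the scale. Here outlier spots were left out, spots of a probe were averaged, and log2 of the processed signal was taken minus the 75th percentile of the array. The probes tested had to be detected, that is well above background, in 1 or more fractions of every series, and 130 probes that had lost all spots on some array were left out (32364 probes remained). Accessions were named through a RefSeq table of GRCm38.p6, which named 48.9% of probes, and the array design uses another build, so no gene coordinate is given apart from the promoter windows.

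Each series was fitted alone with limma 3.58.1 in R 4.3.3, with a natural spline of the fraction number (3 degrees of freedom, 2 in the horizontal series) or a difference of 2 means, with Benjamini-Hochberg adjustment over all tested probes. The fits were tested on simulated data. Alternatives were other scalings, normexp on the median signal, filters, the second probe, moderation, spline, slide, single slides and leaving out each fraction. Array signal as a term, and leaving out the 8 arrays with a 75th percentile under 300, were added after seeing the data. Members, lists and tests were chosen with earlier results of these data known, so none of them is independent evidence. All 9 genes are named by rule, axon initial segment and node genes by counts with the 2 largest and 2 smallest coronal ranges, and like profiles by the 3 highest r among probes above background in at least 14 fractions. The number of arrays limits the precision. The list of intracellular binders and part of the further sodium channel genes are not reported here, and the 4 further genes named are those that remain.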

Additional observations from a re-analysis of the deposited data

Results flagged for a closer look

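Scn4b in sagittal fraction 1 stood apart from the other 9 fractions of its series, at -1.57 against a next lowest level of 2.39. The gap to the nearest fraction was 0.619 of the whole range, above Dixon's critical value for 10 samples. It was the 1 such case among 12 sets, each 1 of 6 genes in the horizontal or sagittal series, of which chance gives about 0.6. The same array had the lowest 75th percentile of all, 135.2.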

How the results depend on the processing

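The counts of the 6 genes that changed with position depended on the setting. The coronal count, 6 as reported, was 1 (of 4 genes) with the second probe per gene, 0 with slide as a term, 1 within fractions 3 to 10 and 3 without the arrays of low signal, and 2 to 5 without single fractions. The horizontal count, 2 as reported, was 4 with the array median, normexp or an intensity trend in the moderation. It was 0 with the second probe, 1 spline degree of freedom fewer, array signal as a term or without the arrays of low signal, and 0 to 2 without single fractions. The sagittal count, 3 as reported, was 1 with the array median, quantile normalization or 1 degree of freedom fewer and 6 with normexp. It was 0 with the second probe, within fractions 5 to 10, with array signal as a term or without the arrays of low signal, and 0 to 6 without single fractions. With array signal as a term, and without the arrays of low signal, limma called 0 of all 32364 probes in both the horizontal and sagittal series (3284 to 9502 at an unadjusted p under 0.05). The share of all probes called moved too, to 59.8% with the array median, 28% with normexp and 23.4% with the intensity trend in the horizontal series, and to 44.2% with normexp and 1.04% with the array median in the sagittal series. With 1 spline degree of freedom fewer it was 0.00309% in the horizontal and 12.7% in the sagittal series. Sagittal shares were 8.13% with quantile normalization and 0% within fractions 5 to 10. The coronal share without the arrays of low signal was 31%. Without single fractions the shares ran from 24.5% to 34.4% (coronal), 0% to 17.8% (horizontal) and 0% to 47.1% (sagittal). The counts between parts of a series were 0 under all settings run, apart from 2 in the sagittal series without fraction 3. Scn8a reversed its coronal trend with its second probe (adjusted p = 0.0882). Some differences between parts of a series, none past the threshold, changed sign. In the coronal series these were Scn8a with its second probe (0.27), Scn2a and Scn4b with slide as a term or within fractions 3 to 10 (-0.0289 and -0.725 in both) and Scn2a with array signal as a term (-0.10). In the horizontal series they were Scn2b with quantile normalization (-0.0687), Scn1a and Scn8a with the second probe (0.0253 and 0.19), and Scn8a and Scn2b without the arrays of low signal (0.12 and -0.0565). Without single horizontal fractions these differences ran from -0.58 to 0.0701 for Scn1a, -0.0685 to 0.44 for Scn2a, -0.58 to 0.32 for Scn8a and -0.26 to 0.25 for Scn2b. In the sagittal series they were Scn2a and Scn4b with array signal as a term (-0.0870 and -0.63) and Scn2a without the arrays of low signal (-0.0721). Of the other single-gene values under an alternative, 592 kept their side of the threshold, 88 lost and 17 gained a call. The cause of each change was not tested. No paired analysis was possible because fractions of the same number in different planes hold different anatomy of different mice, and no test compares the planes.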
